A study of Mus musculus with 10 samples.

Results

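DNA methylation of spermatozoa was compared between decitabine treated and vehicle-control males of the treated generation (P-generation), in 5 of the 10 animals that were sequenced. The members of this comparison were 920844 autosomal CpGs, out of 2031922 listed in at least 1 animal, chosen because each had 10 or more reads over both strands in all 5 P-generation animals. The P decitabine group held 3 C57Bl/6 males (D10, D11 and D13) injected intraperitoneally with decitabine at 0.1 µg/g 3 times per week for 7 weeks, starting at 7 weeks of age. The P vehicle control group held 2 C57Bl/6 males (C14 and C8) given the carrier alone on that schedule, 7.5% DMSO in a saline buffer. Untreated F3 males of both lineages were sequenced as well, and the 2 of the F3 vehicle lineage (F3C30 and F3C9) served here only to give each CpG a starting level, so that neither P group decided its class. They are descendants of the vehicle-control males and not an independent colony. Reduced representation bisulfite sequencing (RRBS) reads short MspI fragments and therefore covers mostly CpG-rich sequence, and the methylation level of a CpG is the percentage of its reads that were methylated. The summed coverage was between 48903817 and 72763350 cytosine reads per P animal, and the median coverage per CpG was between 37 reads in D13 and 57 reads in C14. The 2 vehicle controls stood at opposite ends of the 5 animals at promoters that mark somatic cells (given with the markers), C14 lowest and C8 highest. Differences are therefore also given without C8, against C14 alone.

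Decitabine (5-aza-2'-deoxycytidine) is a cytidine analogue that is built into DNA during replication and traps DNA methyltransferases, so that copied DNA can lose methylation. In the male germ line, most methylation is laid down before meiosis, spermatogonia keep dividing throughout adult life, and mature spermatozoa carry high methylation outside CpG islands and very low methylation in most CpG islands at gene starts. Repeated sequence is silenced by methylation in these cells.

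Decitabine treated animals had a lower mean methylation level than both vehicle controls in a class of CpGs formed after its values were seen. These CpGs are methylated although they lie in CpG-dense sequence outside repeats, many of them in coding exons. The 108 intergenic ones did not share the direction. The sequences of 3 loci of this class with a lower level and of 1 counterpart whose groups overlapped are printed first. They are from the forward strand of GRCm38 (mm10, RefSeq), with each CpG in capitals. Scaf1, Pheta1 and the locus shared by 3110070M22Rik and Tmem267 held the most CpGs of this kind, and the Pard6b locus held the most among loci whose groups overlapped. The printed stretches of Scaf1, Pheta1 and Pard6b are coding sequence.
Scaf1, chr7:45007622-45007907: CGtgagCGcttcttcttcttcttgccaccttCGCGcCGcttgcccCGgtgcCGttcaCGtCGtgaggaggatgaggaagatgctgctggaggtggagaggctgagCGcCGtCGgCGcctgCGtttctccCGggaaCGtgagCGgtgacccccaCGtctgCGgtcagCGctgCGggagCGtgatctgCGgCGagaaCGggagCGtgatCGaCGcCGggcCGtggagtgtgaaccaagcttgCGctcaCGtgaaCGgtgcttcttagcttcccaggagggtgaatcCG
Pheta1, chr5:121852723-121853011: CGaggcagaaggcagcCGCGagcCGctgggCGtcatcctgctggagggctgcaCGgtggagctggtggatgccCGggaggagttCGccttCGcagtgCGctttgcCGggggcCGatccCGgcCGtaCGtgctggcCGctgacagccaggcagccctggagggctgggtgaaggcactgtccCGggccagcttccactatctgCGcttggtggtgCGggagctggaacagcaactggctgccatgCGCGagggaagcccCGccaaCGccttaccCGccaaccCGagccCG
3110070M22Rik and Tmem267, chr13:119488388-119488538: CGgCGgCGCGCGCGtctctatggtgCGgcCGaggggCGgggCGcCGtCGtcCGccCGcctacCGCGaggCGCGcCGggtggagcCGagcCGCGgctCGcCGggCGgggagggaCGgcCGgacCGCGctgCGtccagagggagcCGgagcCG
Pard6b, chr2:168098501-168098767: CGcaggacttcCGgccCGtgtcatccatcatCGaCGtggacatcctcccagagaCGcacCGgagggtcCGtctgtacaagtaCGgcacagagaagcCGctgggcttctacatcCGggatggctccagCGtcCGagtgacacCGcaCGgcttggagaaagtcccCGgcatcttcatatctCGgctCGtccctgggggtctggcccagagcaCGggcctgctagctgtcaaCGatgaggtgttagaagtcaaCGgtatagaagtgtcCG
The 3110070M22Rik stretch held 32 CpGs in 151 bp at a GC content of 83.4%. The Scaf1 stretch had 34 CpGs in 286 bp, Pheta1 26 in 289 bp and Pard6b 22 in 267 bp. Their GC contents were 65.04% in Scaf1, 70.2% in Pheta1 and 60.7% in Pard6b. In the Scaf1 stretch 45 bases were soft-masked. Capitals mark each CpG of the sequence, whether or not it was measured or belonged to the class.

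Over all 920844 CpGs the mean methylation level was 28.6% in C14, 28.6% in C8, 28.3% in D10, 28.3% in D11 and 28.3% in D13. All 3 decitabine treated animals lay below both vehicle-control animals, by 0.32 percentage points on average (28.3% ± 0.038 against 28.6% ± 0.0036, SD, n = 3 and 2; exact permutation p = 0.1, two-sided). With 2 animals against 3, 0.1 is the smallest p that the 10 possible splits allow. The difference without C8 was -0.32. This small deficit depended on giving each CpG equal weight: as the share of methylated reads among all reads the levels were 22.6%, 21.1%, 22.3%, 22.8% and 21.4% in the same order, the animals of both groups overlapped, and the mean difference was 0.30 in the opposite direction.

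When CpGs were sorted by starting level, the 2 vehicle-control animals stood at or near opposite ends in the classes from 5 to under 40% and from 60% upwards. At starting levels of 20 to under 40% (33530 CpGs), the level was 25.3% in C14, 37.5% in C8, 32.5% in D10, 35.6% in D11 and 26.8% in D13. The group difference was 0.18 (exact permutation p = 1.0), whereas without C8 it was 6.30. At 40 to under 60% (21184 CpGs) the level was 51.1% in C14, 53.1% in C8, 50.6% in D10, 51.3% in D11 and 49.5% in D13, so that C14 lay among the decitabine treated animals. At 60 to under 80% (42126 CpGs) the order was turned round, with 75.7% in C14, 67.8% in C8, 69.4% in D10, 67.5% in D11 and 72.6% in D13. There the difference was -1.87 with both vehicle controls and -5.81 without C8 (exact permutation p = 0.6 and 0.25). Among the 212059 CpGs that started at 80% or more, C14 had 93.8%, C8 91.2%, D10 91.7%, D11 91.2% and D13 92.7%, a difference of -0.62 that became -1.91 without C8 and 0.67 without C14. Of the 532030 CpGs that started under 5%, the animal means stayed between 0.78% and 1.03%. In none of the 7 classes of starting level did all 3 decitabine treated animals fall outside the range of both vehicle controls, and the difference by starting level changed in size and sign with the vehicle control used.

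**Figure D1:**
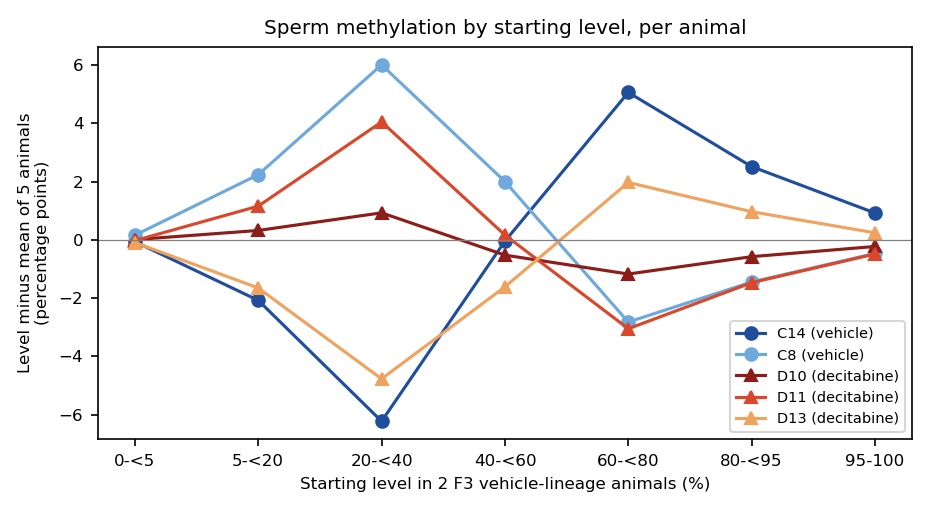
Methylation level of each P-generation animal minus the mean of the 5 animals (percentage points, y axis), by the starting level of the CpGs (%, x axis), with circles for the 2 vehicle controls and triangles for the 3 decitabine treated animals. C14 and C8 lie 12.2 points apart at starting levels of 20 to under 40% and cross between the low and the high classes, where D11 runs beside C8.

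Promoters that mark cells other than spermatozoa followed the same order of animals. Germ cell genes such as Dazl, Sycp1 and Ddx4 are unmethylated at their promoters in germ cells and methylated in somatic cells, and maternally imprinted promoters are unmethylated in spermatozoa. Over the 10 of 12 germ cell promoters that were measured the mean level was 15.8% in C14, 32.4% in C8, 29.4% in D10, 29.9% in D11 and 20.3% in D13. Over the 10 of 14 maternally methylated promoters it was 9.09%, 19.5%, 14.5%, 17.3% and 12.7% in the same order, with the promoter region that Peg10 and Sgce share counted for both genes. Counted once, it gave 9 promoters at 9.71%, 18.8%, 14.96%, 16.7% and 12.7%. Sycp1, a component of the synaptonemal complex, had 15.6% in C14, 47.0% in C8, 34.9% in D10, 31.8% in D11 and 19.4% in D13. At the paternally expressed Peg3 these values were 5.11%, 36.9%, 15.7%, 20.8% and 13.9%. C14 was the lowest of the 5 animals at 8 of the 10 germ cell promoters and C8 the highest at 6. The part of these promoters' order in the differences by starting level was not tested. At Kcnq1ot1 and Airn C8 was at 0% over 7 CpGs each, against 7.96% and 18.4% in C14, so that not every imprinted promoter followed that order. Upstream of H19, methylated on the paternal allele, 7 CpGs had 33.7% in C14, 47.0% in C8 and 34.6%, 34.3% and 35.9% in D10, D11 and D13, and the groups overlapped. Upstream of Meg3 only 3 CpGs were measured, with 19.3%, 22.9%, 18.2%, 37.7% and 20.4%.

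**Figure D2:**
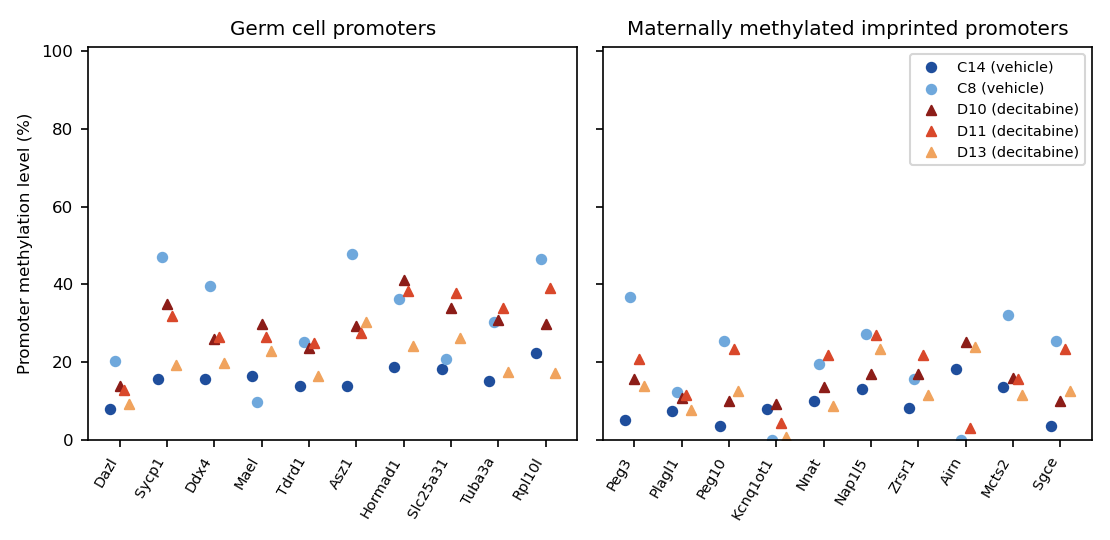
Promoter methylation level (%, y axis) of the measured germ cell genes (left) and maternally methylated imprinted genes (right), 1 symbol per animal, with circles for vehicle controls and triangles for decitabine treated animals. C14 is lowest at 8 of 10 germ cell promoters, and the decitabine treated animals mostly lie between C14 and C8.

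Local CpG density, counted as CpGs per 100 bp in the 250 bp on either side of a CpG, separated the groups only where methylated CpGs were considered apart from unmethylated ones. Without regard to starting level, the difference was -0.80 at fewer than 2 CpGs per 100 bp (164991 CpGs) and shrank to -0.039 at 10 and more (264483 CpGs), where all animals had levels under 1%, and the groups overlapped in each of the 6 density classes. Without C8 the difference was -2.06 at fewer than 2 CpGs per 100 bp and turned to 0.52 at 4 to under 6 and to 0.047 at 10 and more. Among CpGs with a starting level of 80% or more the difference was -0.58 at fewer than 2 CpGs per 100 bp, -0.62 at 2 to under 4, -0.87 at 4 to under 6 and -1.51 at 6 to under 8. Without C8 these differences were -2.01, -1.86, -1.30 and -1.75, and did not grow with density. In the class of 6 to under 8 (1771 CpGs) the levels were 93.5% in C14, 93.0% in C8, 92.3% in D10, 91.7% in D11 and 91.2% in D13, all 3 decitabine treated animals below both vehicle controls (exact permutation p = 0.1). At 8 and more CpGs per 100 bp (79 CpGs) C14 had 89.5% and C8 89.2%, against 80.4%, 78.7% and 72.6% in D10, D11 and D13, a difference of -12.16 with both vehicle controls and -12.28 without C8. CpGs with a starting level of 40 to under 80% gave -7.30 at 6 to under 8 (594 CpGs) and -10.37 at 8 and more CpGs per 100 bp (126 CpGs), again without overlap of the groups. Here the means of the 2 vehicle controls, which differed so widely elsewhere, were 0.16 points apart in the densest class. At single loci of CpG-dense methylated CpGs, described below, they lay further apart, in either direction. C14 and C8 had 69.5% and 57.9% at 3110070M22Rik, and 82.2% and 89.1% at Scaf1.

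These classes were therefore joined into 1, a starting level of 40% or more and 6 or more CpGs per 100 bp, which held 2570 CpGs. Because it was formed after its values were seen, it is described without a test. It was then split by repeats. The 1381 CpGs in soft-masked repeats had 91.1% in C14, 90.8% in C8, 91.5% in D10, 90.4% in D11 and 90.2% in D13, a difference of -0.27 with overlapping groups. Among them, 16 CpGs at 8 and more CpGs per 100 bp differed by -5.26, with all 3 decitabine treated animals below both vehicle controls. The 1189 CpGs outside repeats had 74.7% in C14 and 75.9% in C8, against 69.0% in D10, 69.2% in D11 and 65.4% in D13. Their difference was -7.49 (67.8% ± 2.16 against 75.3% ± 0.86, SD, n = 3 and 2) with both vehicle controls and -6.88 without C8, and no animal of one group entered the range of the other. D13 was the lowest animal here. At the germ cell promoters it stood nearest to C14, and a relation between these positions was not tested. The CpGs in repeats differed from those outside in more than repeats. Their vehicle-control mean was 90.9%, and of the 1381, 977 were intergenic and 17 lay in exons. The part of level and place in the contrast between CpGs in and outside repeats was not tested. Outside repeats and with both vehicle controls, the difference grew with each step of density, from -0.82 at fewer than 2 CpGs per 100 bp through -0.96, -2.63 and -6.72 to -11.55 at 8 and more (189 CpGs), where C14 and C8 had 64.0% and 63.9% and the decitabine treated animals 53.7%, 55.3% and 48.3%. Without C8 the differences were -2.86, -2.67, -2.72, -5.99 and -11.59, so that they grew only from 6 CpGs per 100 bp upwards. For the 1189 CpGs the difference was -7.45 with starting levels from the 3 animals of the F3 decitabine lineage, -3.94 as a share of reads, -1.79 with density counted 50 bp on either side and -13.25 with starting levels from the vehicle controls, which also supply the comparison. The median coverage per animal was 33 to 52 reads in the 2570 CpGs and 37 to 57 over all CpGs.

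**Figure D3:**
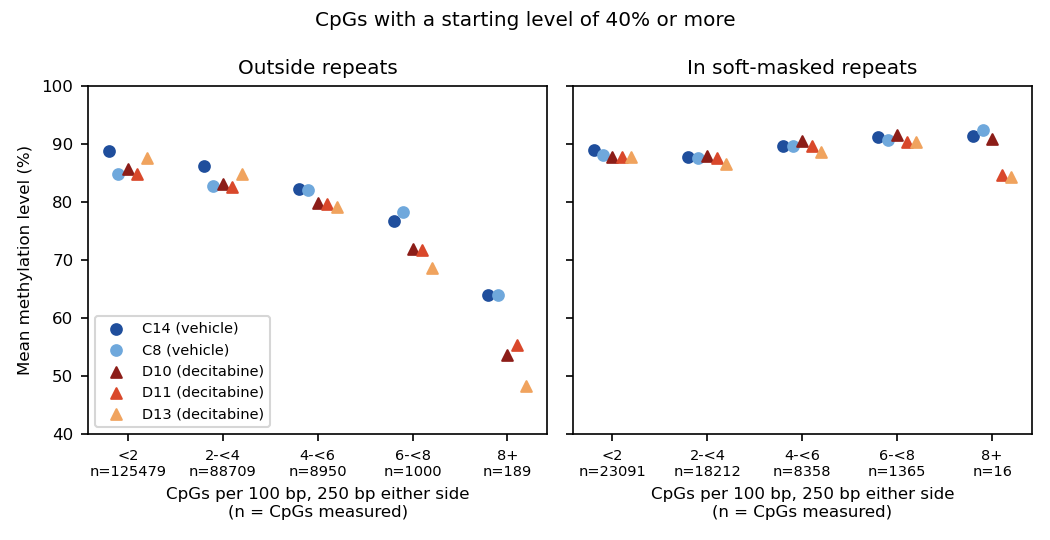
Mean methylation level (%, y axis from 40%) of CpGs with a starting level of 40% or more, by CpGs per 100 bp (x axis), outside repeats (left) and in soft-masked repeats (right), with 1 symbol per animal and the number of CpGs under each class. Outside repeats the triangles of the decitabine treated animals fall away from the circles of the vehicle controls as density rises, to 48.3 to 55.3% against 63.9 and 64.0% in the densest class, whereas in repeats of 6 to under 8 CpGs per 100 bp all 5 animals lie between 90.3 and 91.5%. In repeats of 8 and more, with only 16 CpGs, the decitabine treated animals have 90.8, 84.7 and 84.4% against 91.4 and 92.4%.

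The CpGs of this class outside repeats fell mainly into genes. The 839 that lay in exons had a level of 75.2% in C14, 78.0% in C8, 70.0% in D10, 70.3% in D11 and 65.2% in D13, a difference of -8.11. The 164 within 1000 bp of a gene start differed by -10.73 (70.5% and 67.3% against 59.4%, 59.8% and 55.4%) and the 78 in introns by -6.16. The 108 intergenic ones did not share this direction, since their levels were 71.7% and 70.9% in C14 and C8 and 72.0%, 72.1% and 73.8% in D10, D11 and D13.

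Joined over gaps of up to 500 bp, these 1189 CpGs formed 246 loci, of which 84 held 5 or more of them. All 3 decitabine treated animals lay below both vehicle controls at 35 of the 84 loci and above both at 2, and the groups overlapped at 47. Over all 75416 windows of 1000 bp tested, the corresponding shares were 13.4% below and 6.39% above. Those windows were not chosen by starting level, density or repeats, so they are not a like set. The loci come from a class formed after its values were seen, so their counts restate that choice and are no separate result. The mean of the decitabine treated animals was the lower one at 60 loci, and at 63 when C8 was left out. The median difference over the 84 loci was -4.20, with a range from -37.28 to 15.08, and 64 loci touched coding sequence, of which 29 lay below and 1 above. D13 was the lowest of the decitabine treated animals at 39 loci.

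**Figure D4:**
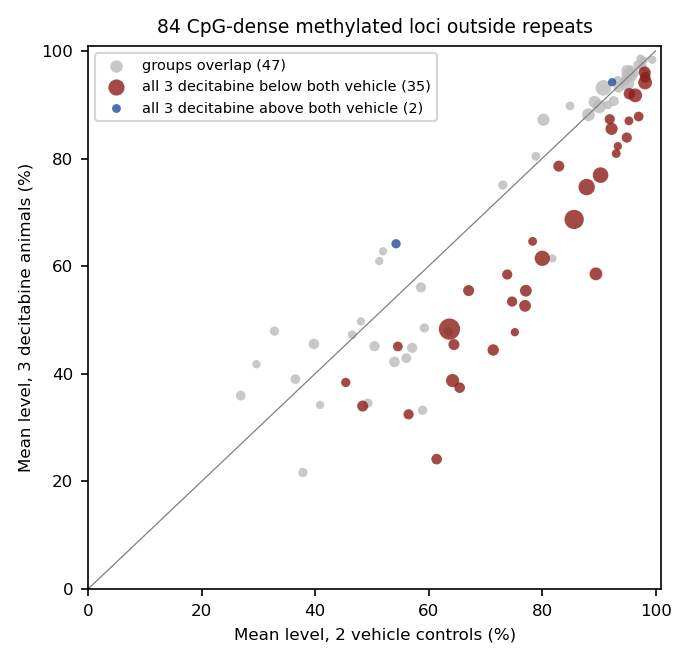
Mean methylation level of the 3 decitabine treated animals (%, y axis) against that of the 2 vehicle controls (%, x axis) at 84 CpG-dense methylated loci outside repeats, with the area of a point growing with its number of CpGs and a grey line of equality. The 35 loci where all 3 decitabine treated animals are below both vehicle controls spread from 45.4 to 98.2% in the vehicle controls, and 5 of them lie above 90% in both groups, as do 18 of the 47 overlapping loci.

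The loci with the most CpGs are described first. At Scaf1, which encodes a partner of RNA polymerase II, 40 CpGs in coding sequence (chr7:45007204-45008063) had 82.2% in C14, 89.1% in C8, 75.04% in D10, 69.5% in D11 and 61.5% in D13. The locus at the start of 3110070M22Rik, overlapping Tmem267 (chr13:119488244-119488985), held 49 CpGs at 69.5% and 57.9% in C14 and C8 and at 46.7%, 51.2% and 47.1% in D10, D11 and D13. Both loci separated the groups, and their distance was 7.18 and 6.72 points between the nearest animals. At Pheta1, an adaptor of endosomal traffic, 28 coding CpGs (chr5:121852655-121853011) had 83.9% and 91.8% against 76.6%, 75.2% and 72.3%. Kank2, a cytoskeletal adaptor (25 coding CpGs, chr9:21795198-21795518), had 95.9% in C14 and 84.8% in C8 against 83.0%, 77.6% and 70.1%, so that C8 lay within 1.73 points of D10. By contrast, 25 coding CpGs of Pard6b, a cell polarity protein, had 92.8%, 88.8%, 92.5%, 93.3% and 93.6%, and the groups overlapped. A stretch of 17 coding CpGs in Plec, the cytoskeletal linker plectin (chr15:76179993-76180732), likewise stayed between 93.4% and 96.9% in all 5 animals, and 18 in Zbtb7a, a transcriptional repressor, between 89.2% and 90.7%. Both were picked out of the order of CpG count. Crocc (24 coding CpGs), Snrnp70 (19) and Zc3h13 (19) held more and separated the groups, with differences of -18.58, -4.03 and -4.67. Snrk (19) overlapped. A second Plec locus (13 CpGs, chr15:76178724-76179302) separated the groups, with a difference of -2.05.

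Larger differences were found at several loci with fewer CpGs, named here after their values were seen. Mex3a, an RNA binding protein, had 10 coding CpGs (chr3:88536402-88536490) at 61.7% in C14 and 61.1% in C8 against 33.3%, 18.03% and 21.1% in D10, D11 and D13. At Fiz1, a zinc finger protein (16 coding CpGs, chr7:5008293-5008712), the values were 88.3% and 90.7% against 68.8%, 62.2% and 44.7%. Foxo3, a forkhead transcription factor (10 coding CpGs, chr10:42197358-42197794), had 58.9% and 72.1% against 34.9%, 46.0% and 31.4%. These 3 loci differed by -37.28, -30.92 and -28.06, and in each the nearest animals of the groups did not meet. Bend3, a chromatin repressor (17 coding CpGs), differed by -25.49, and Nr1h2, the oxysterol receptor LXR beta (13 CpGs), by -24.38. Por, the electron donor of cytochrome P450 enzymes (13 CpGs), differed by -21.71. Of the 2 loci in the other direction, Celsr2, a cadherin (7 coding CpGs), had 54.8% and 53.7% against 59.3%, 72.1% and 61.1%, and an Acnat1 intron had 91.8% and 92.9% against 94.8%, 93.3% and 94.4%.

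Distance to the start of the nearest protein-coding gene gave smaller contrasts. The difference was -0.14 (-0.032 without C8) within 500 bp, where methylation was low (2.24 to 2.54% in the 5 animals, 438931 CpGs). It was -0.76 from 1000 to 2000 bp, -0.77 from 2000 to 5000 bp and -0.66 from 5000 to 10000 bp, and in each of these 3 classes all decitabine treated animals were below both vehicle controls (exact permutation p = 0.1). Between 2000 and 5000 bp the levels were 49.8% in C14, 49.4% in C8, 48.9% in D10, 48.7% in D11 and 48.9% in D13, and the difference without C8 was -0.996. Beyond 50000 bp the difference fell to -0.27 (123410 CpGs), and all 3 decitabine treated animals again lay below both vehicle controls. The levels there were 69.62% in C14 and 69.60% in C8 against 69.44%, 69.50% and 69.10% in D10, D11 and D13. CpGs that started at 80% or more overlapped between groups in each distance class, with differences of -0.47 to -1.38 and of -1.59 to -2.65 without C8. By place in the gene, promoters differed by -0.17, exons by -0.58, introns by -0.58 and intergenic CpGs by -0.39, with overlap of the groups in all 4. Without C8 these differences were -0.030 in promoters, 0.022 in exons, -1.67 in introns and -0.19 in intergenic CpGs, and as a share of reads promoters and intergenic CpGs turned to 0.062 and 0.17. Soft-masked repeats differed by -0.34 (-0.14 without C8) and other sequence by -0.32 (-0.34 without C8), and only the latter separated the groups.

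The difference was spread over all chromosomes. The mean level of decitabine treated animals was lower on all 19 autosomes, from -0.17 on chromosome 12 to -0.41 on chromosome 5, and on 15 of them all 3 animals were below both vehicle controls. Without C8, 18 autosomes stayed lower, between -0.64 and 0.032. Chromosomes differ in their mix of starting levels, so each was also standardised to the mix of all autosomes. After that step 17 of 19 separated the groups, the differences were between -0.42 on chromosome 19 and -0.18 on chromosome 12, and all 19 remained negative without C8 (-0.57 to -0.011). C8 minus C14 varied from -0.41 to 0.41 between these chromosomes.

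**Figure D5:**
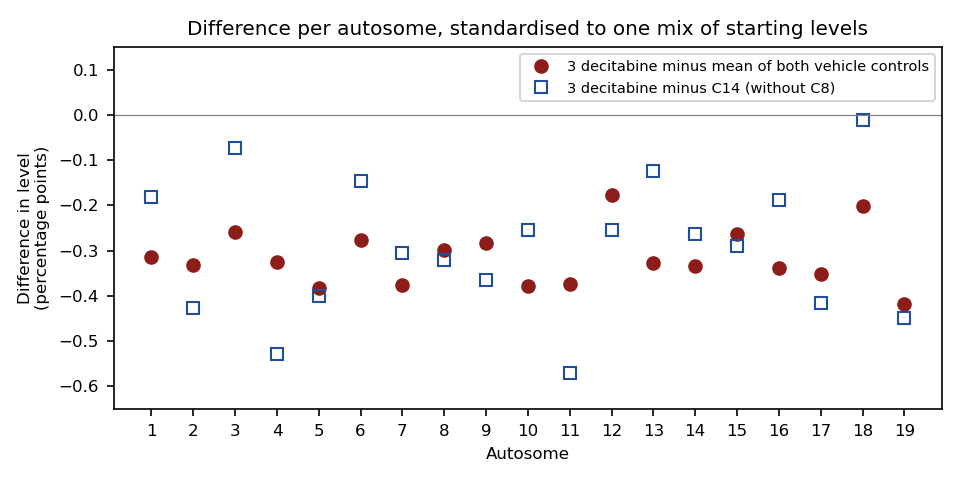
Difference in methylation level between groups (percentage points, y axis) on each autosome (x axis), standardised to the same mix of starting levels, against both vehicle controls (filled circles) and against C14 alone (open squares). All 19 circles lie between -0.42 and -0.18, and all 19 squares lie below 0, down to -0.57.

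Tests on single CpGs gave calls in both directions. A logistic model on the reads of each CpG without a term for the spread between animals called 6385 CpGs (0.693% of 920844; q under 0.01 and a difference of at least 25 points), 3034 higher (0.329%) and 3351 lower (0.364%) in decitabine treated animals. All 3 animals lay outside both vehicle controls at 2173 of the higher and 2731 of the lower calls, where 3.34% and 5.09% of all CpGs lay so. The calls were picked for a group difference in these same animals, so their larger share partly restates that choice. Without C8 only 2476 were called, and without C14 40502. With an overdispersion term estimated from the 5 animals 0 CpGs passed, and 10337 had an unadjusted p under 0.05. In the CpG-dense methylated class outside repeats 112 of 1189 CpGs were called lower and 10 higher (9.42% and 0.841%). In its repeat counterpart 1 of 1381 was called, lower. In methylated CpGs of fewer than 4 CpGs per 100 bp outside repeats 0.896% were called lower and 0.630% higher. The dense class was formed after the levels of these same animals were seen, so its share of calls restates that choice and is no separate result. Without C8 the dense class had 5.21% called lower and 0.0841% higher.

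Windows and promoters were tested with a model that includes a spread between animals. Its size came almost wholly from a trend fitted over all regions, weighted as 202 degrees of freedom for windows and 2701 for promoters. The spread between animals within a single region therefore counted little. Of 75416 windows 1 passed an adjusted p of 0.05 (0.00133%; 4368 had an unadjusted p under 0.05, 1345 of them higher), and limma on the log2 ratio of reads called 0. That window, at Actg1 (73 CpGs, chr11:120348049-120348838), was nearly unmethylated, with 0.66% in C14 and 2.12% in C8 against 0.35%, 0.37% and 0.31%. Of 12559 promoters 1 passed (0.00796%), Hmgxb4, with 0.62% and 2.38% against 0.48%, 0.16% and 0.36%. In both, C8 stood apart from the other 4 animals.

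The windows with the widest gap between the nearest animals of the groups are therefore named by that gap, and none of them passed the adjusted p. The widest lay in intergenic sequence 8736 bp from the start of Crtc1, a coactivator of CREB (5 CpGs, chr8:70448315-70448480), with 83.1% in C14 and 86.7% in C8 against 42.9%, 48.4% and 45.8% in D10, D11 and D13. The stretch is shown with its 7 CpGs in capitals, of which 5 had 10 or more reads in all animals.
Crtc1, chr8:70448315-70448480: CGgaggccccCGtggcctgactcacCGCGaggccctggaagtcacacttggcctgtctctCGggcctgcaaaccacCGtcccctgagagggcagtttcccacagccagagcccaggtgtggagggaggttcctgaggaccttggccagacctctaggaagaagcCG
An intron of P2rx7, an ATP-gated ion channel (9 CpGs, chr5:122653287-122653402), had 88.3% and 92.7% against 63.1%, 48.8% and 62.7%. An Amotl2 exon (chr9:102720419-102720516) had 64.2% and 64.8% against 41.4%, 36.4% and 40.3%. In these windows all 3 decitabine treated animals lay at least 22.8 points below both vehicle controls. A Clybl intron (chr14:122234711-122234807) and a window overlapping an exon of Gipc1 (chr8:83664157-83664471) had differences of -26.00 and -26.00. Among the 5 higher windows, an intron of Lipo1 (5 CpGs, chr19:33787031-33787160) had 13.8% in C14 and 3.53% in C8 against 33.9%, 36.5% and 37.2%. An intergenic window 18366 bp from the start of Mrln (chr10:70223030-70223069) had 15.8% and 14.1% against 47.6%, 37.8% and 54.3%. The others, intergenic near Obox8, at Kif13a and at Klhl36, differed by 27.00, 22.05 and 18.68. Their fewest reads over an animal were between 70 and 272.

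Of all promoters, 15% had all 3 decitabine treated animals below and 5.87% above both vehicle controls. Lipo1 had the widest gap among higher promoters through the same 5 CpGs. Rpl39l, a ribosomal protein of the testis (16 CpGs), was also among the 5, with 16.0% and 15.5% against 32.6%, 31.5% and 23.3%, and Fkbp6, needed for meiosis and piRNA function (10 CpGs), with 6.08% and 22.1% against 30.5%, 32.7% and 30.1%. Gm34653 and Sh3gl3 completed the higher promoters, at 17.14 and 9.89 points. Olfr1033, an olfactory receptor, had the widest gap among the lower ones, with 74.4% and 78.2% against 58.1%, 53.2% and 55.0%. A1cf, a cofactor of RNA editing, had 84.5% and 96.3% against 74.1%, 68.3% and 73.6%. Eif4ebp3, Gpsm3 and Etnppl differed by -20.96, -13.41 and -13.24.

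No promoter of the gene lists passed the adjusted p. Of the methyltransferases, demethylating enzymes and their cofactors 6 of 9 were measured, and Dnmt3a, Dnmt3b, Uhrf1, Tet2 and Tdg stayed at or under 2.32% in each animal. Dnmt3a, a de novo methyltransferase, was the 1 promoter of this list whose groups did not overlap, with 0.53% in C14 and 0.80% in C8 against 0.38%, 0.47% and 0.43%. Of all promoters, 20.9% had groups that did not overlap. Tet3, a demethylating dioxygenase measured at 3 CpGs, had 68.2% and 41.7% against 68.0%, 76.7% and 79.8%, and the median difference of the list was -0.16. Of 14 measured meiosis and germ cell promoters, 2 were above both vehicle controls in all 3 decitabine treated animals, where 5.87% of all promoters lay so. Mael, a piRNA pathway protein, had 16.4% and 9.89% against 29.7%, 26.5% and 22.9%, and Sycp3, of the synaptonemal complex, 16.3% and 18.8% against 23.2%, 35.2% and 25.1%. Slc25a31, an ADP/ATP carrier of the testis from the list of germ cell promoters methylated in soma, had 18.3% and 20.8% against 33.9%, 37.7% and 26.2%. Over the 14 meiosis and germ cell promoters the median difference was -1.64, against -0.10 over all promoters. The direction turned without C8, with 12 of the 14 promoters higher than in C14 and a median of 8.76. Over all promoters these were 5467 of 12543 and -0.061. All 12 developmental regulators were measured, and 2 had all decitabine treated animals below both vehicle controls, where 15% of all promoters lay so. The median difference of the 12 was -0.97, which became 0.0056 without C8. Foxa2 had 3.76% and 3.34% against 2.89%, 2.78% and 1.60%. Of the 8 gene symbols chosen for pyrosequencing in the study 6 had a measured promoter, although the promoter annotated as Tcf3 lies on chromosome 10 and is not the region amplified under that name. The groups overlapped at all 6, Dazl with 7.89% and 20.4% against 14.01%, 12.95% and 9.23%. Abt1 was at or under 1.11% and H19 at or under 25.8% in each animal, both far below their pyrosequenced levels in spermatozoa. These promoter windows are therefore no repeat of the study's pyrosequencing. In spermatozoa of decitabine treated P-generation males the study found H19, Tcf3 and Abt1 lower and Dazl higher.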

How the data were processed

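RRBS libraries of spermatozoal DNA from 5 P-generation males were analysed, with F3 animals for starting levels. The deposited files list, per cytosine of a CpG, the methylated and unmethylated reads as 2 numbers joined in 1 field, which is not a plain count column. Per the labels the authors used CASAVA 1.8.2, Trim Galore 0.3.3, cutadapt 1.1, Bismark 0.10.1 and build mm10. Levels here are unweighted means over CpGs after summing both strands, with no correction for incomplete conversion or for PCR duplicates, so reads are not independent molecules and depth gives counting precision only.

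Groups came from the labels. Class means were compared by exact permutation of animals. The p-values of these permutations are set against the spread between these animals. Windows of 1000 bp and promoters (1000 bp either side of a protein-coding start, GENCODE vM21) with 3 or more CpGs and at least 10 methylated and 10 unmethylated reads were tested by a quasi-binomial model with dispersions squeezed by limma 3.58.1 (R 4.3.3) and Benjamini-Hochberg adjustment. It replaced a planned negative binomial test that the file format did not permit. CpGs were tested by a logistic likelihood ratio test. Scripts used Python 3.11.15, numpy 2.4.6, scipy 1.17.1 and pandas 2.3.3, and the fits over CpGs, windows and promoters were tested on simulated data. The simulated CpGs had no spread between animals, and the simulated windows and promoters had 1 fixed spread. Neither can show how the fits behave with vehicle controls as unlike as C14 and C8.

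Named windows and promoters had 5 or more CpGs, all 3 decitabine treated animals beyond both vehicle controls and the widest gap, 5 per direction, regardless of adjusted p because fewer than 5 passed. Loci of the CpG-dense class were named by CpG count or, where said, by difference or out of that order. The comparison, its classes and its gene lists were chosen with earlier results of these data known. Listed promoters with fewer than 3 CpGs at this coverage were not analysed here.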

Additional observations from a re-analysis of the deposited data

How the results depend on the processing

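The mean difference over all CpGs kept its direction and moved by less than 1 SD between animals (-0.34 to -0.30 over the settings that left out 1 animal, required 20 reads or 10 reads on each strand, or removed CpGs of extreme coverage), and was 0.30 as methylated reads divided by all reads. Under that weighting the difference of CpGs outside repeats turned to 0.30 and that of 18 autosomes turned upwards, among them 0.28 on chromosome 1, 0.73 on 2, 0.20 on 5, 0.31 on 6, 0.46 on 7, 0.27 on 8, 0.35 on 9, 0.37 on 10, 0.53 on 11, 0.29 on 12, 0.19 on 14, 0.39 on 15, 0.0994 on 16 and 0.0428 on 19. It also turned upwards in 3 density classes (0.24 at 2 to under 4, 0.049 at 4 to under 6 and 0.014 at 6 to under 8 CpGs per 100 bp), in 2 distance classes (0.76 from 500 to 1000 bp and 0.053 from 10000 to 50000 bp), in promoters and in intergenic CpGs, and the cause was not tested. Standardised to starting levels, all 19 autosomes stayed lower under each setting run.

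With 1 animal left out, the difference at starting levels of 80% or more was -1.91 to 0.67, at fewer than 2 CpGs per 100 bp -2.06 to 0.45 and in introns -1.67 to 0.50, the lowest without C8 and the highest without C14. With starting levels from the vehicle controls themselves, which also supply the comparison, the first became -2.92. The CpG-dense methylated class changed from -3.61 to -2.57 as a share of reads, -7.37 with starting levels from the vehicle controls, -1.19 with density counted 50 bp on either side (23348 CpGs) and -5.68 with 500 bp on either side. Outside repeats it was -8.16 to -6.24 with 1 animal left out, and -3.94 (share of reads), -13.25 (starting levels from the vehicle controls) and -1.79 (density 50 bp on either side). At Sfi1 a locus of that class had 38941 reads in the animal with the fewest, against 519 to 3578 reads in the animal with the fewest at the described loci with 17 or more CpGs. Both classes, and starting levels from the F3 decitabine lineage, were added after seeing the data.

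CpG calls were 2476 to 40502 with 1 animal left out, 3446 at 20 reads, 14806 at 15 points and 0 with overdispersion. Window calls were 0 to 1520 with 1 animal left out, 0 by limma, 21916 without a term for animals, 0 with 1 or more CpGs and 2 at 20 reads. Promoter calls were 0 to 432 with 1 animal left out, 0 by limma, 3144 without a term for animals and 2 at 500 bp either side. The largest counts with 1 animal left out were those without C14. The named windows and promoters kept their direction in all 112 alternatives run on them. They were chosen because the groups did not overlap, so leaving out 1 animal could not turn their direction, and this count is no separate result. No paired analysis was possible because the labels give the animals no shared numbers that pair the groups. With 2 vehicle controls against 3 decitabine treated animals, the smallest exact permutation p is 0.1, so no exact test of a single value can pass 0.05. The 2 vehicle controls also differed from each other.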
